A study of Caenorhabditis elegans with 2 samples.

Results

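The 6 genes described here encode the presenilins of Caenorhabditis elegans and the other subunits of gamma-secretase. They are hop-1, sel-12, spe-4, aph-1, aph-2 and pen-2, taken by name from the Ensembl annotation of the build WBcel235, where all 6 were found among 19973 nuclear protein-coding genes. The data came from ChIP-seq, in which DNA bound by a protein is precipitated and sequenced. The precipitated protein was SPR-1 with a C-terminal tag of green fluorescent protein and FLAG, expressed from the integrated transgene wgIs521 in the strain OP521, which carries unc-119(tm4063), and it was precipitated with an antibody to the fluorescent protein. There was 1 group of 2 biological replicates, each a separate biosample of whole hermaphrodites at the L4 larval stage, taken 50 hours after the animals had been synchronised as starved L1 larvae. The labels do not say whether these came from separate cultures. The samples hold no untagged or mutant group, so these lists alone do not tell specific binding of SPR-1 from other signal. Whole animals mix all tissues, and weak binding in many cells cannot be told apart from strong binding in few.

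Gamma-secretase is a membrane complex that cuts proteins within their membrane-spanning part. Presenilin is its catalytic subunit, an aspartyl protease, and nicastrin, APH-1 and PEN-2 are needed for its assembly and activity. In C. elegans the complex releases the intracellular part of the Notch receptors LIN-12 and GLP-1. SPR-1 is the worm counterpart of CoREST, a corepressor that acts with a histone demethylase, and spr genes are known as suppressors of the egg-laying defect of sel-12 mutants. Raised hop-1 expression has been described in some of those suppressor mutants.

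Sequence upstream of the start is printed for sel-12 and pen-2 only. All 300 bases of the sel-12 stretch lie within its candidate at the gene start. Of the 213 bases of the pen-2 stretch, 201 lie within its start candidate, which only replicate 1 had. Both stretches end 1 base before the annotated start, lie on the plus strand and hold no annotated gene. Their sequence was read from the RefSeq genome of WBcel235. The sel-12 stretch is chrX:915567-915866, and its capitals mark the 21 bases centred on the summit deposited for the candidate. In the regions listed around the members the summit was the middle of the region, so it need not mark the highest signal. The pen-2 stretch is chrIII:11343109-11343321, the whole 213 bases between pen-2 and its divergent neighbour T28D6.6, and its capitals mark the 21 bases richest in G and C.
sel-12: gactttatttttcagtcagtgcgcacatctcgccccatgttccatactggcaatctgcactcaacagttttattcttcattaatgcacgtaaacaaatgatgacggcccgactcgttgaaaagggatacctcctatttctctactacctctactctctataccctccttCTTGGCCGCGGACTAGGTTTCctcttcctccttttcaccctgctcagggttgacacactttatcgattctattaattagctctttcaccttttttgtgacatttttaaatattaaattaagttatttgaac
pen-2: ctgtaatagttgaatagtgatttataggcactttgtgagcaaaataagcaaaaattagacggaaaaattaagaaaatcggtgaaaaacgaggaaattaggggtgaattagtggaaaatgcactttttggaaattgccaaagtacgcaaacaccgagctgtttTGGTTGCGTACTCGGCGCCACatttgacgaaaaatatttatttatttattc
The marked bases of sel-12 held 13 G or C of 21 (61.9%), against 40.3% over the 300 bases printed. The richest 21 bases of that stretch began 8 bases before the marked ones and held 15. In pen-2 the marked bases held 14 of 21 (66.7%), against 34.7% over the stretch. They were picked as the richest, so this excess follows from the choice and is not comparable with that at the sel-12 summit. The summit of the only pen-2 start candidate, seen in replicate 1, lay beyond the printed stretch, 24 bp after the start.

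The deposited lists hold regions and not reads, so read depth is unknown. The pooled list, made from both replicates together, had 30000 candidate regions. Replicate 1 had 26070 and replicate 2 had 21966. These 3 lists were deposited as peaks and background together, so a candidate need not be a bound site. The thresholded list held the 1686 pooled regions of highest signal, down to 79.7. Signal is the authors' value for a region, on a scale not given in the sources used here, so lists are compared below only by percentile, the share of a list's regions with a lower signal. In the pooled list 98.7% of the regions had the same width of 460 bp, and the lowest signal was 17.6.

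No member had a thresholded region near its start or in its body. Within 1000 bp of the start, 0 of 6 members had a thresholded summit, where the share over all protein-coding genes was 5.83%. In the gene body the count was 0 of 6, and over all genes 2.50% had one. Of the 6 members, 5 had a pooled summit of any strength within 1000 bp of the start, where 45.8% of all genes did. That count rests on the pooled list: 1 of 6 members had a start candidate in all 3 lists, where 27.6% of all genes did, and in replicate 2 alone it was 2 of 6. Among genes with such a candidate, 12.7% had a thresholded one. Of the 6 members, 4 are on chromosome I, where 56.8% of genes had a candidate near the start, while the share was 58.0% on III, which holds pen-2, and 43.1% on X, which holds sel-12. With so few members these counts are descriptions of the 6 genes and carry no test.

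The levels of the 5 members with a start candidate spread from the lowest edge of the pooled list to the middle of the genes that had one. In the pooled list the strongest was at aph-1, with a signal of 34.9, followed by sel-12 at 28.0, hop-1 at 26.3, aph-2 at 19.3 and spe-4 at 17.9. These signals were 43.8%, 35.2%, 33.1%, 24.2% and 22.5% of the lowest thresholded signal. Over the 9153 genes with a candidate the median of the strongest signal was 32.8, so aph-1 lay above it and the other 4 below. The percentile among those genes was 54.5 for aph-1, 37.4 for sel-12, 32.1 for hop-1, 6.56 for aph-2 and 1.22 for spe-4. Over 5733 genes with a start candidate in each replicate, the percentile of a gene differed between the replicates by a median of 13.6 points. sel-12 and hop-1 were closer together than that, as were aph-2 and spe-4. The first place of aph-1 did not hold in both replicates: among genes with a candidate it was at percentile 50.8 in replicate 2, above sel-12 at 46.4, but at percentile 16.5 in replicate 1, below hop-1 at 31.1 and pen-2 at 28.7.

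**Figure D1:**
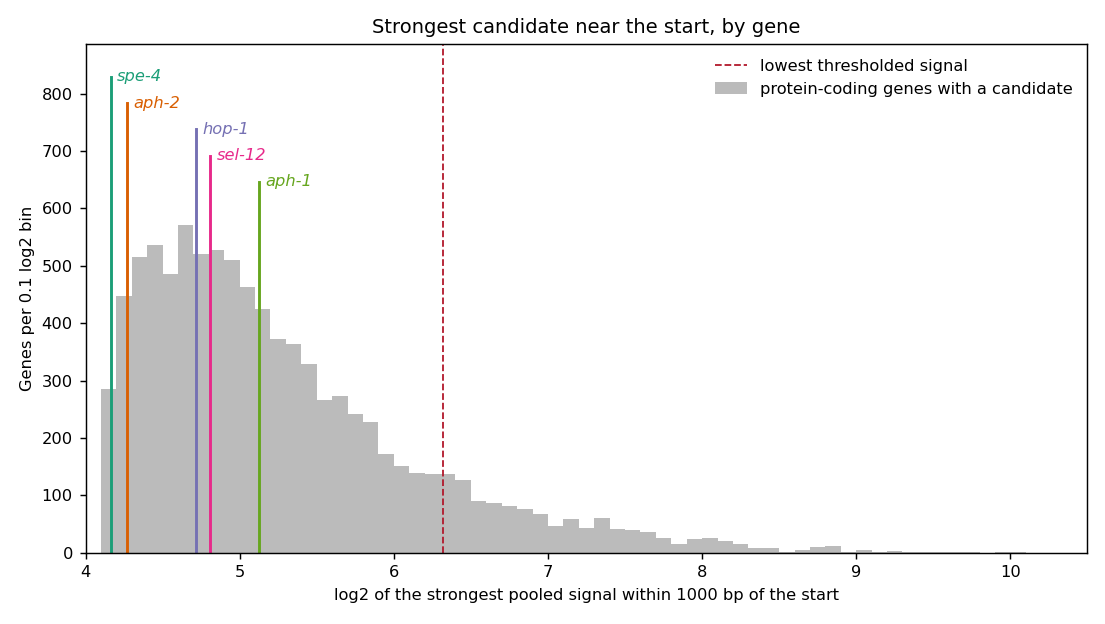
The grey bars count protein-coding genes by the log2 of their strongest pooled signal within 1000 bp of the start, in bins of 0.1, and the coloured lines mark the 5 members that have one. All 5 stand left of the dashed line at the lowest thresholded signal of 79.7, and spe-4 and aph-2 stand at the low edge of the genes.

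Only aph-1 had a start candidate in the pooled list and in each replicate. Over all genes 28.7% had one in both replicates, whatever the pooled list held. Replicate 1 had a start candidate for 4 members, hop-1, aph-1, aph-2 and pen-2, where 43.5% of all genes had one. Replicate 2 had one for 2 members, sel-12 and aph-1, where the share over all genes was 38.8%. The replicates thus named different members apart from aph-1, and spe-4 had none in either.

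The presenilin gene hop-1 (WBGene00001985, I 4208515 to 4210341, minus strand) had its start candidate inside the neighbouring gene. The pooled region at 4210869 to 4211328 had its summit 758 bp upstream of the hop-1 start, in an intron of swsn-2.2, whose own start lay only 120 bp from that summit. It was at rank 16062, percentile 46.5 of the pooled list. The overlapping region of replicate 1 was at percentile 42.4, with its summit 764 bp upstream, and replicate 2 had none there. The 2 starts are 638 bp apart on opposite strands, so the candidate belongs to both genes by the distance rule.

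A coding exon near the end of hop-1 held a higher candidate that both replicates shared. Its pooled summit was 1736 bp downstream of the start and 90 bp before the end of the gene, with a signal of 34.4 at percentile 69.2. The region, at 4208375 to 4208834, also reached the 3′ end of the convergent gene C18E3.3. Replicate 1 had 2 overlapping regions there, at percentile 71.5 and percentile 40.8, and replicate 2 had 1, at percentile 53.8. The stronger of the 2 in replicate 1 had its summit 172 bp past the end of hop-1, in the 3′ untranslated region of C18E3.3.

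The presenilin gene sel-12 (WBGene00004769, X 915867 to 918290, plus strand), whose loss disturbs Notch signalling in the vulva and egg-laying system, had its candidate just upstream of its own start. The pooled region at 915516 to 915975 had its summit 121 bp upstream of the start, in intergenic sequence, at rank 14265 and percentile 52.45. No other protein-coding gene starts within 1000 bp of that summit. Replicate 2 had a region at exactly the same place, and so with the same summit, at percentile 58.5. Replicate 1 had no region that overlapped it. In the gene body replicate 1 alone had a summit, 1463 bp downstream of the start in a coding exon, at percentile 19.6, and the pooled list had none.

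The sequence under the sel-12 summit was richer in G and C than under the other pooled start candidates. Within 50 bp of the summit on both sides it held 49.5% G and C. Of 28314 nuclear pooled candidates that were not thresholded, 84.2% were lower, and their median was 36.6%, while thresholded regions had a median of 48.5%. The other 7 pooled candidates at members ranged from 24.8% at the 3′ end of aph-1 to 41.6% in aph-2. GC content is a description of these 8 places, and its part in their signal was not tested.

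spe-4 (WBGene00004958, I 7454660 to 7456953, plus strand) encodes a presenilin-related protein that sperm formation needs. Its candidate was the weakest at any member. The pooled summit lay 61 bp downstream of the start, in a coding exon, at rank 29311 of 30000, percentile 2.30. Neither replicate had a region that overlapped it. A further pooled region, 251 bp past the end of spe-4 in the 3′ untranslated region of lars-2, was at percentile 7.45, and replicate 1 alone had it, at percentile 34.0.

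aph-1 (WBGene00000147, I 9232068 to 9233560, minus strand) encodes a multipass membrane subunit of the complex and had the highest start candidate of the members in the pooled list and in replicate 2, but not in replicate 1. The pooled region at 9233765 to 9234224 had its summit 435 bp upstream of the start, in the intergenic gap behind tat-5, the next gene on the same strand. It was at rank 8958, percentile 70.1. Replicate 2 had the region at percentile 63.1, with its summit 445 bp upstream, while in replicate 1 it was at percentile 24.1, 484 bp upstream. A second pooled candidate within 1000 bp of the start lay 234 bp downstream in a coding exon, at percentile 33.8, and had no overlapping region in either replicate.

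A further candidate lay at the 3′ end of aph-1, where the gene overlaps the end of gip-2 on the other strand. Its summit was in the 3′ untranslated region, 47 bp before the end of aph-1, at percentile 30.6. The 2 regions of replicate 1 that overlapped it were at percentiles 3.59 and 1.68, and the 1 region of replicate 2 was at percentile 21.9. The same replicate regions also overlapped the next pooled candidate, 209 bp past the end of aph-1, so they do not count for the aph-1 end alone.

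aph-2 (WBGene00000148, I 10340997 to 10345654, plus strand) encodes the worm nicastrin and is the longest of the 6 genes at 4658 bp. Its only pooled candidate near the start or in the body had a summit 354 bp downstream of the start, in an intron, at percentile 11.45, and no overlapping region in either replicate. Replicate 1 had a separate region with its summit 742 bp upstream, in a coding exon of ears-1, at percentile 12.2, which overlapped no pooled candidate. A stronger pooled candidate lay just outside the gene, 132 bp past the end of aph-2 and 48 bp after the start of coa-6. That region, at 10345556 to 10346015, had a signal of 48.1, at percentile 84.8, and overlapping regions at percentile 74.2 in replicate 1 and percentile 67.9 in replicate 2.

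pen-2 (WBGene00003975, III 11343322 to 11344147, plus strand), the shortest member at 826 bp, encodes the small subunit PEN-2. It had no pooled candidate within 1000 bp of its start or in its body, so no pooled signal is given for it. Replicate 1 had a region at 11343121 to 11343570 with its summit in the 5′ untranslated region, 24 bp after the start, at percentile 39.3, and replicate 2 had none. The pen-2 and T28D6.6 starts are 214 bp apart and share this region. The nearest pooled summits were 1053 and 1262 bp upstream, in an intron of T28D6.6, with signals of 38.2 and 36.7 at percentiles 75.3 and 73.2. A single region of replicate 2, at percentile 59.7, overlapped both of them, and replicate 1 had 2 regions there, at percentiles 50.2 and 44.9.

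**Figure D2:**
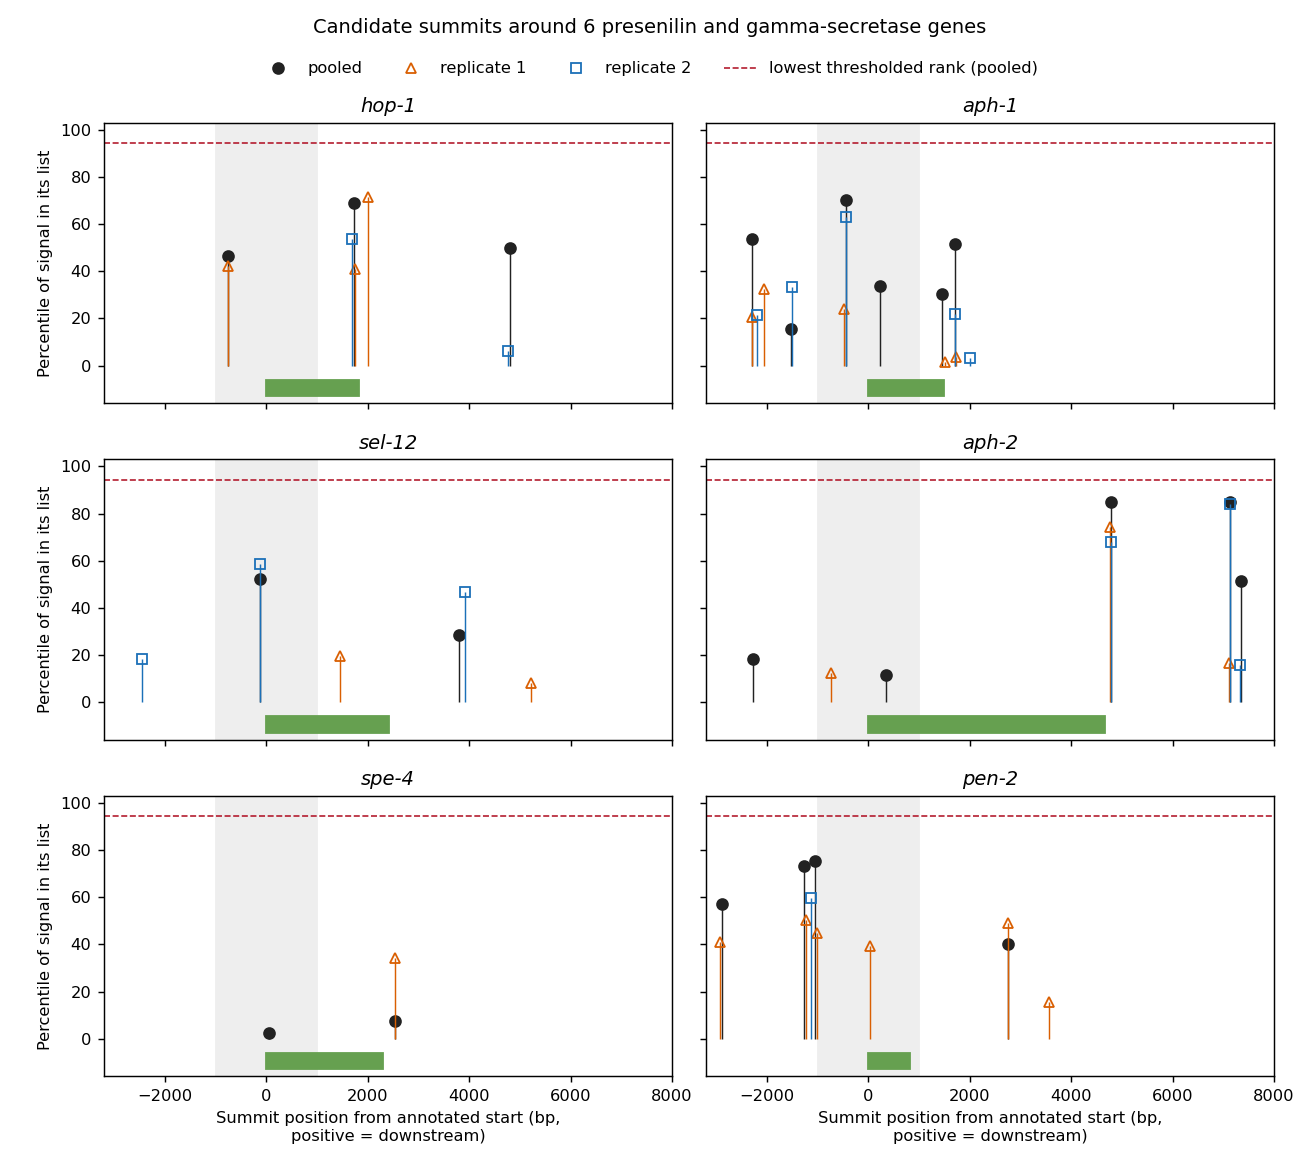
Each panel shows 1 gene as a green bar, with the position of every candidate summit from 3000 bp before to 3000 bp after it on the horizontal axis and its percentile of signal within its own list on the vertical axis. Grey marks 1000 bp on both sides of the start, and the dashed line is the rank of the weakest thresholded region. No summit reaches that line, and in the grey band only aph-1 has all 3 symbols.

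Of the 6 members, 4 had a pooled summit in the gene body, where 42.7% of all protein-coding genes did. The 6 bodies had 5 pooled summits in 13522 bp, or 0.370 per kb, where all protein-coding genes had 0.305 per kb. aph-1 had 2, and 12.3% of the 11227 genes of like length, from 0.5 to 2 times its own, had as many or more. hop-1, spe-4 and aph-2 had 1 each, and 37.7%, 40.9% and 57.7% of the genes of like length had at least as many. sel-12 and pen-2 had 0, like 58.2% and 73.3% of genes of their length. In the replicate lists the bodies had 3 summits in replicate 1, or 0.222 per kb, where all genes had 0.265 per kb. Replicate 2 had 1 summit, or 0.0740 per kb, where all genes had 0.217 per kb. The rate at the members was higher than over all genes in the pooled list and lower in both replicate lists. It rests on 5, 3 and 1 summits, too few to set the members apart. The hop-1 exon was the only one of these places with a summit in both replicate lists.

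Each replicate listed only some of the candidates at the members. Of the 8 pooled candidates near a start or in a body, 3 overlapped a region in both replicates, 1 in replicate 1 only, 1 in replicate 2 only and 3 in neither. Among the 20354 nuclear pooled candidates of the same range of ranks, 8958 to 29311, 32.1% overlapped a region in both, 34.3% in replicate 1 only, 21.03% in replicate 2 only and 12.5% in neither. Thresholded regions overlapped both in 99.8%. Where both replicates had a region, the percentile of the strongest differed between them by a median of 20.8 points in that range of ranks. The aph-1 candidate upstream of the start differed by more than that, and the candidate at the hop-1 exon and that at the 3′ end of aph-1 by less. The deposited −log10 q of the 8 candidates ran from 0.0283 to 0.339, where the thresholded regions had at least 2.80. Values as low as those of the 8 do not set a region apart from background.

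**Figure D3:**
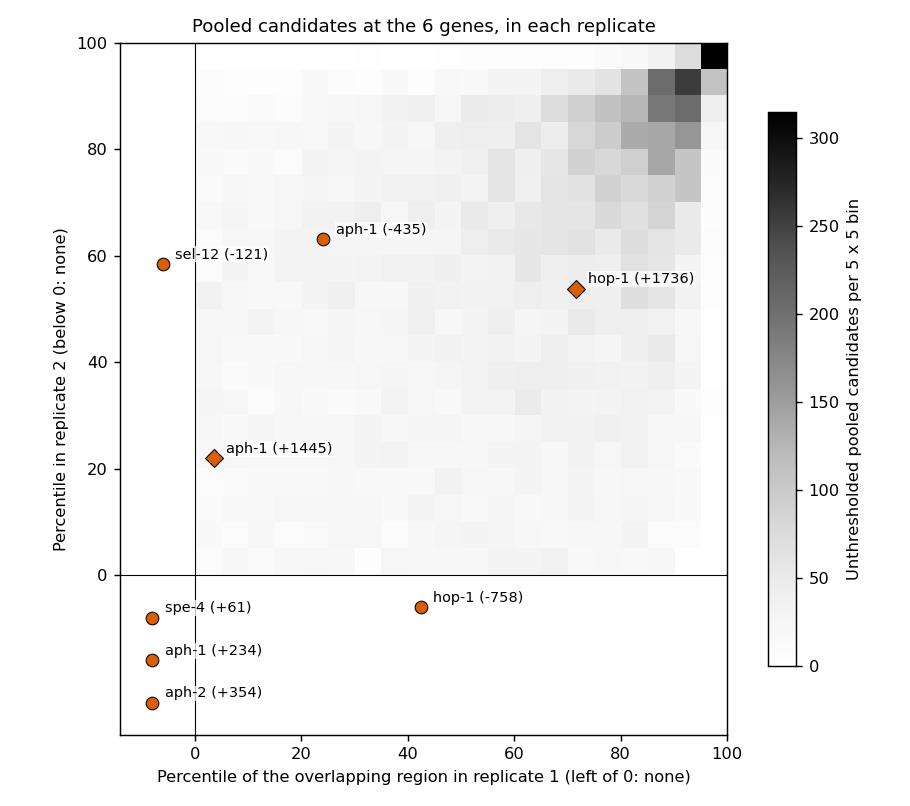
The 8 pooled candidates near a start (circles) or only in a body (diamonds) are placed by the percentile of their strongest overlapping region in replicate 1 and in replicate 2, with the offset of the summit from the gene start in bp in brackets. Points left of 0 or below 0 had no overlapping region in that replicate, and grey counts all pooled candidates that were not thresholded and had both. The candidates of spe-4 and aph-2 and the inner one of aph-1 fall outside both axes.

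The thresholded summit nearest to each member lay far outside the gene. The distance from the start was 20677 bp for spe-4, 26045 bp for pen-2, 31704 bp for hop-1, 33608 bp for aph-1, 33823 bp for sel-12 and 59796 bp for aph-2, and its median over all protein-coding genes was 26959 bp. From aph-2, 74.2% of genes had a nearer one, and from spe-4 42.2%. The one nearest to spe-4, in an intron of T28F4.1, was strong (signal 307, rank 104, with ranks of 104 in replicate 1 and 126 in replicate 2). The one nearest to aph-1 lay in a tRNA gene within an intron of F14B4.1. The one nearest to sel-12 (signal 148) was near the start of sms-2, and that nearest to pen-2 lay in an intron of teg-1. The surroundings were not empty of weaker regions: within 20 kb of the gene the pooled list held from 11 candidates at spe-4 to 21 at aph-2, and the median protein-coding gene had 12.

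Genes linked by function, genetics or protein family to gamma-secretase or Notch signalling were read from 6 lists of 37 genes in all. Of these, 26 had a pooled candidate within 1000 bp of the start and 4 a thresholded one, while the 6 members had 5 and 0. Over all protein-coding genes the shares were 45.8% and 5.83%. Over the genes with a candidate the median percentile among all such genes was 32.1 for the members and 45.5 for the 37 genes. The 4 Notch receptors and nuclear factors had 3 with a candidate, lag-1 (signal 26.6), sel-8 (21.6) and glp-1 (21.04), none of them thresholded. lin-12 had none in the pooled list. None of the 4 had a start candidate in both replicates: lag-1 and glp-1 had one in replicate 1 only, sel-8 and lin-12 in replicate 2 only. Of 15 ligand genes 7 had one, and dos-1 was thresholded (signal 105), with its summit in a tRNA gene inside a dos-1 intron. The next ligand genes were osm-11 (54.6) and dsl-7 (31.6).

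All 5 genes of other membrane proteases had a start candidate in the pooled list and in both replicates, where 27.6% of all genes did. They include the imp genes, which encode intramembrane aspartyl proteases related to presenilin, and the ADAM protease genes sup-17 and adm-4, which cut the outer part of the Notch receptors. imp-2 (signal 125, rank 702) and imp-3 (signal 88.1, rank 1383) were thresholded, 343 and 122 bp upstream of their starts. The imp-2 summit was nearer to the start of enpl-1, at 68 bp. imp-1 followed at 51.1, with its summit nearer to the start of gskl-2, at 84 bp. The percentile among genes with a candidate was 95.1 in replicate 1 and 89.6 in replicate 2 for imp-2, and 88.8 and 86.1 for imp-3. The replicates were further apart for the other 3 genes: imp-1 was at 18.1 in replicate 1 and 79.98 in replicate 2, adm-4 at 25.03 and 62.8, and sup-17 at 84.8 and 49.8. No difference between these genes and the members was tested, as the lists are short.

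Among the suppressors of presenilin, spr-2, whose product resembles the nucleosome assembly protein SET, was thresholded (signal 98.5, 182 bp upstream), at percentile 92.0 of genes in replicate 1 and percentile 87.7 in replicate 2. spr-4 (30.3) and spr-3 (27.7), which encode zinc finger proteins, had weaker candidates, as did spr-5, and spr-1 had none. Both replicates had a start candidate for spr-4, but only replicate 1 had one for spr-3 and spr-5. The other sel genes had 6 of 7 with a candidate and none thresholded, where the shares over all genes were 45.8% and 5.83%. Their highest pooled signals were at sel-11 (54.5), sel-9 (50.4) and sel-5 (39.5). Among genes with a candidate sel-11 was at percentile 78.3 in replicate 1 and 27.7 in replicate 2, where sel-9 was the highest of them at 73.5. apl-1, the gene of the worm relative of the amyloid precursor protein, had one at 26.6, 21 bp after its start.

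**Figure D4:**
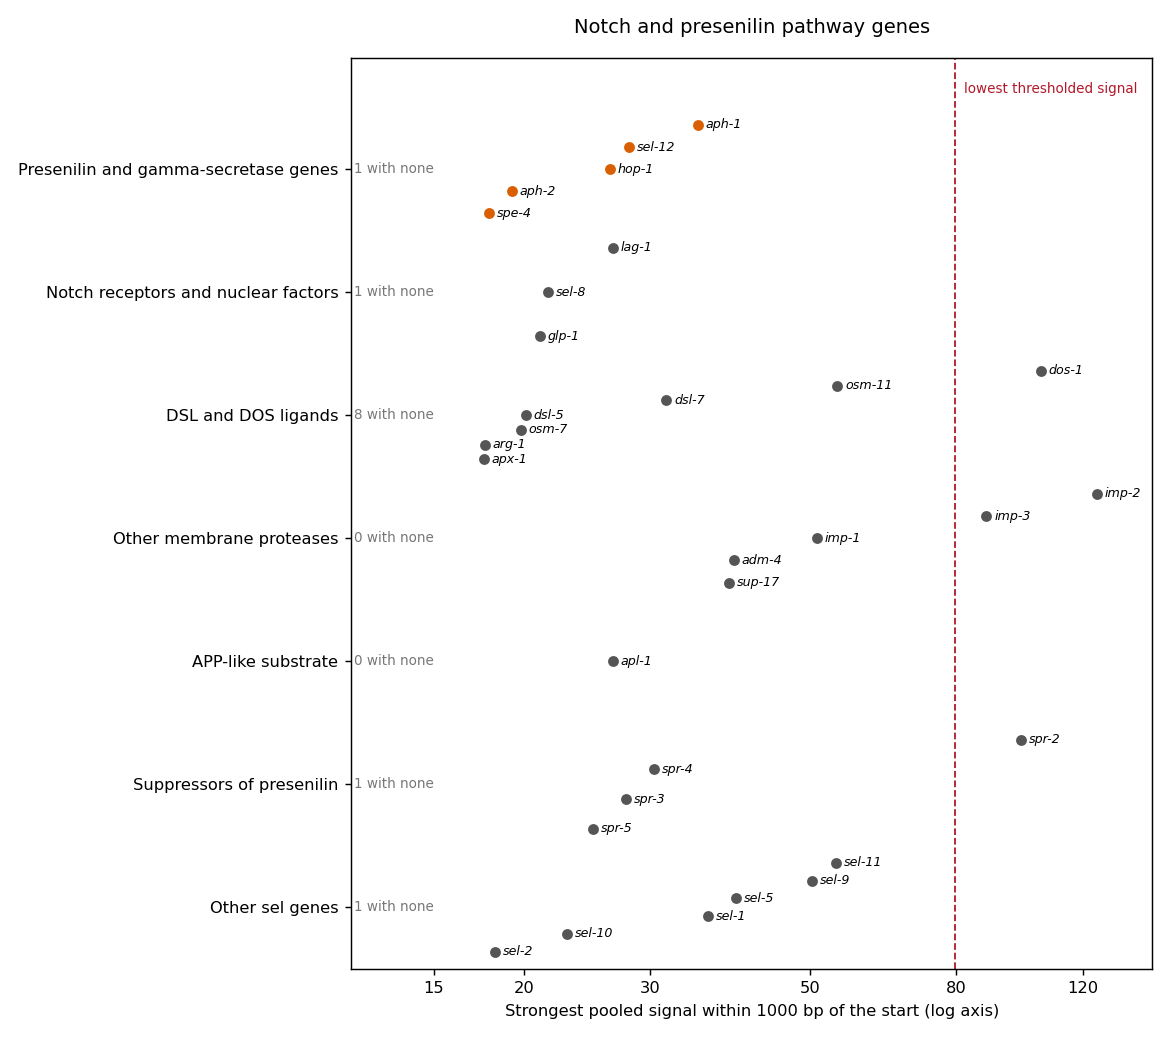
Each point is a gene at its strongest pooled signal within 1000 bp of the start, on a log axis, with the 6 members in the top row and the other lists below, and the number of genes with no candidate at the left. The members end at 34.9 for aph-1, and imp-2, imp-3, dos-1 and spr-2 lie right of the dashed line at 79.7.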

How the data were processed

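Regions from ChIP-seq of tagged SPR-1 in 2 replicates were read from the lists deposited on ce11. The authors ran an irreproducible discovery rate analysis on the candidate lists, which were made against 1 control alignment, per the deposited text listings. That control was not analysed here. The sources used here give no aligner, peak caller or threshold. The deposited lists give for each region a signal value, a −log10 q and a summit offset. Read depth is unknown, so no interval is given. The highest region end on each chromosome was within its length in WBcel235, and gene starts came from Ensembl release 115. In this species annotated starts are often trans-splice sites, downstream of the start of transcription. No coordinate was converted, and the ce10 lists were not used. All coordinates are 1-based.

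A region counted as near a gene when its summit lay within 1000 bp of the start, and as shared with a replicate when the regions overlapped by at least 1 bp. Percentiles are shares of a list, or of genes with a candidate, with a lower signal. The named genes were the 6 members, the genes at their candidates, and the 3 strongest of each listed group; the other genes named were chosen after their values were seen. Members and lists were chosen with earlier results of these data known, so no test was made. The counting was tested on simulated lists (Python 3.11.15, pandas 2.3.3). Alternatives were other distances, starts, thresholds, overlaps and each replicate alone.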

Additional observations from a re-analysis of the deposited data

How the results depend on the processing

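The count of 0 members with a thresholded summit near the start held at every setting tried. The share of all genes with one was 4.36% at 500 bp and 8.52% at 2000 bp. It was 3.15% and 10.2% among 0.5 times and 2 times as many of the strongest pooled regions. Among the 1686 strongest regions of replicate 1 it was 5.65%, and among those of replicate 2 it was 5.96%. These shares are low, so 0 of 6 does not set the members apart from other genes. The count of 5 members with a candidate became 4 at 500 bp (33.5% of all genes), 6 at 2000 bp (59.7%) and 6 when any overlap of the region with the window was enough (49.8%), and stayed 5 with the start of any transcript (48.4%). With 1 replicate left out it ranged from 2 to 4. It was 2 without replicate 1, where 38.8% of all genes had a candidate, and 4 without replicate 2, where 43.5% had one. The 5 summits in gene bodies became 8 with any overlap of the region, or 0.592 per kb, where all genes had 0.389 per kb. With 1 replicate left out they became 1 to 3. The count was 1 without replicate 1 (0.0740 per kb, all genes 0.217) and 3 without replicate 2 (0.222 per kb, all genes 0.265). Of the 8 pooled candidates at members, 3 were found in both replicates, and 2 remained at a reciprocal overlap of 50%. Among nuclear pooled candidates of the same range of ranks the shares were 32.1% and 20.2%. Percentiles of the 5 members were recomputed in 25 cases, and in 6 of them no candidate was left: hop-1 at 500 bp and without replicate 1, sel-12 without replicate 2, spe-4 without either replicate, and aph-2 without replicate 1. Of the other 19, 17 moved by less than the typical replicate spread, though aph-2 without replicate 2 rests on another region, 742 bp upstream. The exceptions were aph-1, at 16.5 without replicate 2, and hop-1, at 49.1 within 2000 bp, where its exon candidate enters. No paired analysis was possible because the samples form 1 group. Read depth is unknown, so a missing candidate says only that none was listed.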
